A study of Capra hircus with 24 samples.

Results

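The insulin-like growth factor axis is described here through 10 genes: the ligands IGF1 and IGF2, the receptors IGF1R and IGF2R, the binding proteins IGFBP2, IGFBP3, IGFBP4, IGFBP5 and IGFBP7, and the protease PAPPA. They were taken by gene symbol, each symbol matched 1 row, and they are 10 of the 20326 genes listed. All 10 were among the 13049 genes tested, those that reached a value of 1 in no fewer than 3 libraries. RNA came from dermal papilla cells, the mesenchymal cells at the base of the hair follicle, of cashmere goats (Capra hircus). Secondary follicles grow the fine cashmere fibre and primary follicles the coarse guard hair. There were 8 groups of 3 libraries: secondary cells from males and from females in October and in June, and primary cells from males and from females in October and in June. The labels call October anagen (active hair growth) and June early anagen (its beginning), so month, growth stage and collection cannot be told apart. They give no genotype, treatment or age and do not say whether the cells were cultured, and they number biological replicates within a group without saying whether these came from separate animals or cultures. The spread behind each p-value is therefore that between libraries and may be technical.

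IGF1 and IGF2 are secreted peptides that signal for growth and survival through the tyrosine kinase receptor IGF1R, while IGF2R takes up IGF2 for breakdown and does not signal in this way. Most of the circulating and tissue peptide is held by the binding proteins, and the secreted protease PAPPA frees it, mainly by cutting IGFBP4. In the skin, papilla cells are a known source of IGF1, which supports the growth of the hair shaft in cultured human follicles.

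Library totals ran from 959766 to 1045876, and the number of reads behind a value is unknown. Values look like TPM (a relative abundance scaled by transcript length) divided by a factor per library. Levels of different genes are set side by side on that reading, which the sources used here do not state. Libraries of a group correlated with r from 0.993 to 0.997 across genes, while across groups r was 0.954 to 0.992. Of the 12 papilla markers, 8 reached a value of 1 in 3 libraries, and all 12 summed to 382 to 725. VCAN stood at 206 or above in every library, whereas SOX2 was at 0.70 or below in secondary cells other than October males and at 10.6 or above in the remaining groups. All 8 fibroblast markers reached the level for testing. The 6 endothelial markers summed to 2.86 at most, and the 12 measured keratinocyte markers to 323 to 352 in secondary October females against 4.68 to 83.8 in the other groups. In bulk RNA, fewer cells of a type and less RNA per cell cannot be told apart.

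**Figure D1:**
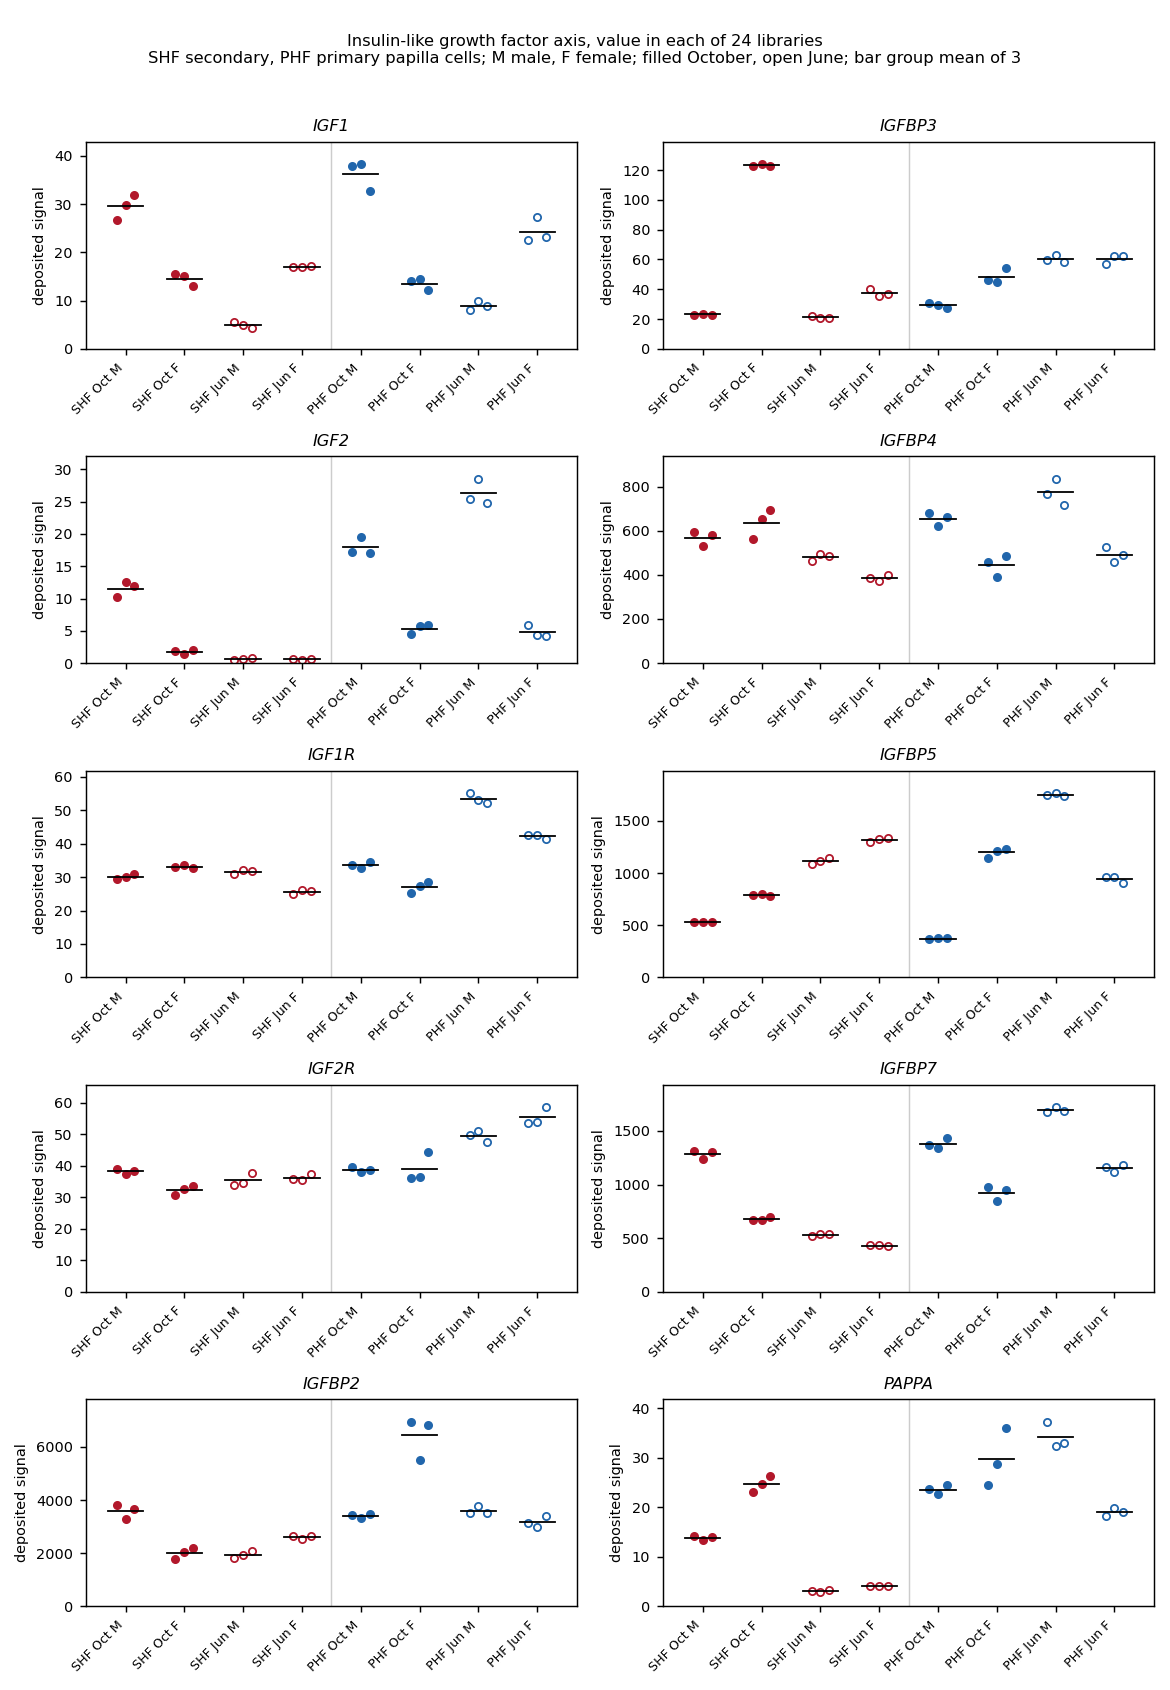
Deposited signal (linear axis from 0) of the 10 genes in each of the 24 libraries, as points, with the group mean as a bar; SHF is secondary, PHF primary, M male, F female. IGF2 and PAPPA stood lowest in the 6 secondary June libraries (up to 0.82 and up to 4.10), and IGFBP3 stood highest in the 3 secondary October female libraries (123 to 124).

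IGF1 (gene ID 100860838) was higher in October than in June in males of both cell types and lower in primary females. In secondary cells it had values of 26.7, 29.9 and 32.0 in October males and 5.61, 4.99 and 4.36 in June males, with no overlap between the months. In secondary females it had 15.5, 15.1 and 13.1 in October and 17.0, 16.9 and 17.3 in June. The female libraries lay closer together and in the other order. In primary cells it had 37.8, 38.3 and 32.7 in October males and 7.96, 9.96 and 8.78 in June males. In primary females it had 14.0, 14.4 and 12.2 in October and 22.5, 27.2 and 23.1 in June. Here too October males lay above June males and October females below June females, with no overlap.

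On the log2(value + 1) scale, which understates changes of low genes, IGF1 was higher in October than in June by 2.35 (SE 0.095) in secondary males (adjusted p = 1.56e-15, limma with Benjamini-Hochberg adjustment, as for all adjusted p-values here). In primary males it was higher by 1.91 (SE 0.095, adjusted p = 7.69e-14). In primary females IGF1 was lower in October, at -0.80 (SE 0.095, adjusted p = 3.27e-07), and in secondary females the difference of -0.22 was not called (adjusted p = 0.0602). It was called there with the replicate block (adjusted p = 0.0395), with only the compared groups (adjusted p = 0.0259), without primary June female 2 (adjusted p = 0.0497) and without secondary October female 1 (-0.26, adjusted p = 0.0499). The month effect differed between males and females by 2.57 (SE 0.134, adjusted p = 7.28e-13) in secondary cells and by 2.71 (SE 0.134, adjusted p = 1.86e-13) in primary cells. Males stood above females in October, by 0.97 in secondary and 1.36 in primary cells, and below them in June, at -1.60 and -1.35.

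Between follicle types IGF1 differed less. In June it was lower in secondary than in primary cells, at -0.73 in males (adjusted p = 7.25e-07) and -0.48 in females (adjusted p = 0.00021). In October the mean difference over the sexes was -0.09 (95% interval -0.23 to 0.04, adjusted p = 0.312). The October value in males was -0.29 (adjusted p = 0.0359), and its call was lost without secondary October male 1 (-0.22, adjusted p = 0.18) or 2 (-0.30, adjusted p = 0.0659) and without primary October male 1 (-0.26, adjusted p = 0.128) or 2 (-0.25, adjusted p = 0.133). The highest group mean, 36.3 ± 3.09 (SD, n = 3) in primary October males, was 7.27 times the lowest, 4.99 ± 0.625 in secondary June males.

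IGF2 (gene ID 100861277), the ligand that is strongest in fetal growth and is imprinted in mammals, had the widest range of the 10 genes. Its values were 10.2, 12.5 and 11.9 in secondary October males and 0.50, 0.60 and 0.82 in secondary June males. Secondary females had 1.85, 1.48 and 2.05 in October and 0.68, 0.44 and 0.67 in June. Primary males had 17.2, 19.5 and 17.1 in October and 25.5, 28.6 and 24.8 in June, and primary females had 4.52, 5.67 and 5.86 in October and 5.93, 4.40 and 4.17 in June. Every secondary library was below every primary library of the same month and sex. The highest group mean was 44 times the lowest.

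In June IGF2 was lower in secondary than in primary cells, at -4.06 in males (SE 0.115, adjusted p = 2.2e-18) and -1.86 in females (SE 0.115, adjusted p = 5.63e-12). With a pseudocount of 0.1 the female value was -2.83, since the June secondary values lie under 1. In October the differences were -0.59 in males (adjusted p = 0.000637) and -1.18 in females (adjusted p = 1.85e-08). In secondary cells IGF2 was higher in October than in June, by 2.94 in males (adjusted p = 9.85e-16) and 0.81 in females (adjusted p = 4.03e-06). With a pseudocount of 0.1 the female value was 1.45. In primary males it was lower in October, at -0.53 (adjusted p = 0.000485), and in primary females the value was 0.13 (adjusted p = 0.375). Males exceeded females by 2.24 in primary June cells, 1.58 in primary October cells and 2.17 in secondary October cells. In secondary June cells the sexes were at 0.04 (95% interval -0.20 to 0.28, adjusted p = 0.827).

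The make-up of the ligand pool differed between the groups. IGF1 made up 70.5 to 72.9% of the summed IGF1 and IGF2 signal in secondary October males and 84.2 to 91.8% in secondary June males. Its share was 86.5 to 91.1% in secondary October females and 96.2 to 97.5% in secondary June females. In primary cells the share was 65.7 to 68.8% in October males, 67.6 to 75.6% in October females and 79.2 to 86.1% in June females. Primary June males were the group with more IGF2 than IGF1, with IGF1 at 23.8 to 26.2% of the sum.

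The receptors varied less than the ligands. IGF1R (gene ID 100861165), which transmits the signal of both ligands, was at 29.5, 30.0 and 30.8 in secondary October males, 33.0, 33.7 and 32.8 in secondary October females, 30.8, 32.1 and 31.9 in secondary June males and 25.0, 26.0 and 25.8 in secondary June females. It was at 33.7, 32.8 and 34.6 in primary October males, 25.1, 27.3 and 28.7 in primary October females, 55.1, 52.9 and 52.1 in primary June males and 42.7, 42.5 and 41.5 in primary June females. The 6 primary June libraries were the highest of the 24, and the remaining 18 lay within 25.0 to 34.6.

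In June, IGF1R was lower in secondary than in primary cells in males (-0.74, adjusted p = 2.15e-12) and in females (-0.70, adjusted p = 9.84e-12). The difference between these effects was -0.04 (95% interval -0.17 to 0.09, adjusted p = 0.676). In primary cells it was lower in October than in June, at -0.65 in males and -0.63 in females (adjusted p = 2.8e-11 and 8.68e-11). Averaged over the sexes the difference between follicle types in October was 0.07 (adjusted p = 0.126), made of 0.29 in females (adjusted p = 1.94e-05) and -0.16 in males (adjusted p = 0.0156). The male value lost its call without secondary October male 1 (-0.14, adjusted p = 0.0636) or primary October male 3 (-0.14, adjusted p = 0.0718), and the mean of the sexes was called without primary October female 3 (0.09, adjusted p = 0.0349).

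IGF2R (gene ID 100860744), the receptor that removes IGF2, ran the narrowest range of the 10, with the highest group mean 1.72 times the lowest. It averaged 49.5 ± 1.75 in primary June males and 55.4 ± 2.78 in primary June females (SD, n = 3 each), and the other 6 groups had means of 32.3 to 39.0. Of the 7 neighbouring pairs in the order of means, 4 overlapped in their libraries, all among those 6 groups. In June it was lower in secondary than in primary cells, at -0.47 in males (adjusted p = 8.55e-07) and -0.60 in females (adjusted p = 4.3e-08). In primary cells it was lower in October than in June, at -0.35 in males (adjusted p = 6.35e-05) and -0.50 in females (adjusted p = 6.51e-07). In secondary cells the month made a mean difference of -0.03 (95% interval -0.12 to 0.06, adjusted p = 0.593).

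In RNA signal, the 5 binding proteins were far more abundant than the ligands. Their summed signal was 5985 ± 348 in secondary October males, 4219 ± 270 in secondary October females, 4086 ± 172 in secondary June males and 4777 ± 78.1 in secondary June females (SD, n = 3 each). It was 5840 ± 152 in primary October males, 9050 ± 895 in primary October females, 7877 ± 245 in primary June males and 5809 ± 228 in primary June females. The ratio of this sum to the summed ligands was lowest in primary October males, at 98.3 to 120, and highest in secondary June males, at 639 to 820. IGFBP6, a further carrier described below, is not in the sum, so the ratio is not that of all carriers. IGFBP7, which binds these peptides weakly, is in it. Its share ran from 8.84% in a secondary June female library to 24.0% in a primary October male library. IGFBP2 was the largest component in every group, at 45.2 to 72.6% of the sum, and IGFBP3 the smallest, at 0.367 to 3.13%.

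**Figure D2:**
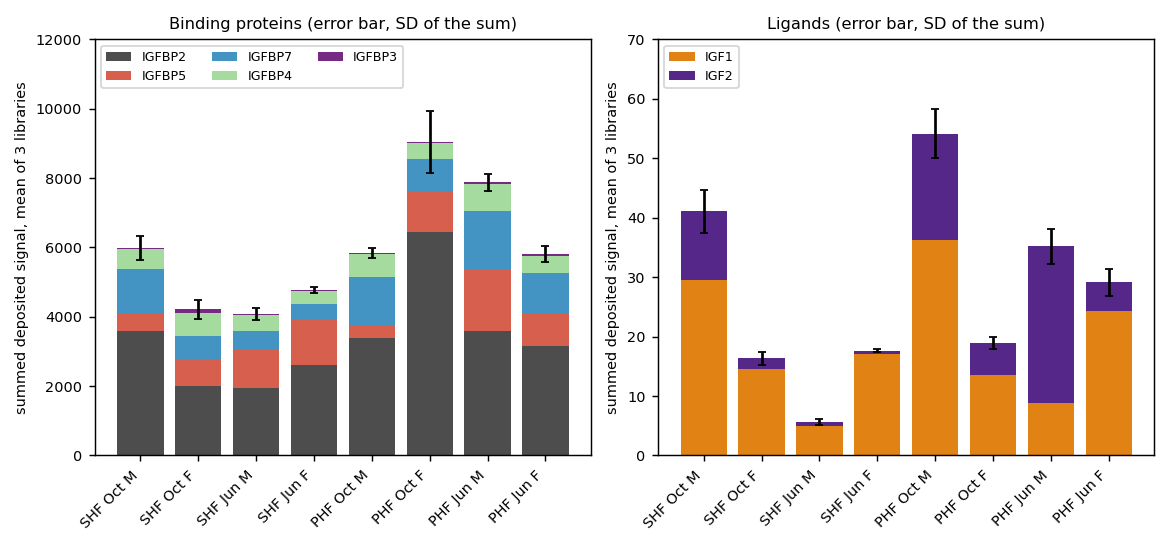
Mean deposited signal of the 5 binding proteins (left) and the 2 ligands (right), stacked by gene for each of the 8 groups, with the SD of the sum over 3 libraries as the error bar; SHF is secondary, PHF primary, M male, F female. The binding protein sum was highest in primary October females (9050) and the ligand sum in primary October males (54.2), and primary June males held more IGF2 than IGF1.

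IGFBP2 (gene ID 102175172), which binds IGF2 with preference, ranked 36th of the 20326 genes by its mean over the libraries. Primary October females stood apart with 6953, 5520 and 6832, against 3126, 2976 and 3389 in primary June females. Secondary October females had 1783, 2023 and 2173, the lowest libraries of that month. October males had 3808, 3267 and 3652 in secondary cells and 3422, 3308 and 3476 in primary cells, ranges that overlapped. The difference between follicle types in October was -1.69 in females (SE 0.079, adjusted p = 5.54e-14), while in males it was 0.07 (95% interval -0.09 to 0.23, adjusted p = 0.608), and the 2 effects differed by 1.76 (adjusted p = 2.96e-11). In June, secondary cells were lower in males (-0.90, adjusted p = 1.51e-09) and in females (-0.28, adjusted p = 0.00551).

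IGFBP3 (gene ID 102174541), the main carrier of these peptides in blood, stood out in 1 group. Secondary October females had 123, 124 and 123, against 40.4, 35.3 and 36.7 in secondary June females and 46.2, 44.6 and 54.6 in primary October females. The difference from primary cells in October was 1.33 in females (SE 0.064, adjusted p = 9.08e-14) and -0.32 in males (adjusted p = 0.000817), where secondary cells had 23.0, 23.5 and 22.9 and primary cells 31.1, 29.1 and 27.4. In June secondary cells were lower in both, at -1.47 in males and -0.68 in females (adjusted p = 5.26e-15 and 7.79e-09). The secondary October female libraries also had the highest keratinocyte markers, with KRT5 at 186, 201 and 203 and at 28.9 or below in all the others, and the highest mitochondrial share, 11.2 to 12.7% against 8.72 to 10.9%. Their part in the IGFBP3 value was not tested.

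IGFBP4 (gene ID 100860812), the main substrate of PAPPA, moved less. Its group means ran from 385 ± 13.5 in secondary June females to 774 ± 59.1 in primary June males (SD, n = 3 each), and 5 of the 7 neighbouring pairs in that order overlapped in their libraries. In June it was lower in secondary cells, at -0.68 in males (adjusted p = 1.06e-07) and -0.35 in females (adjusted p = 0.000815). In October it was higher in secondary females by 0.52 (adjusted p = 1.44e-05) and not called in males (-0.20, adjusted p = 0.0751). The male value was called with a common total for each library (-0.29, adjusted p = 0.00906), with only the compared groups (adjusted p = 0.0153), without secondary October female 1 (adjusted p = 0.0464) and without primary October female 2 (adjusted p = 0.0361).

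IGFBP5 (gene ID 100860950), which binds to the extracellular matrix, showed opposite differences in the sexes. Secondary males had 531, 533 and 531 in October and 1088, 1120 and 1148 in June, and secondary females had 792, 804 and 779 in October and 1297, 1328 and 1339 in June. Primary males had 366, 375 and 374 in October and 1748, 1769 and 1742 in June, and primary females had 1148, 1215 and 1232 in October and 959, 963 and 901 in June. Primary males were therefore both the lowest group of the 8, in October, and the highest, in June.

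The month effect on IGFBP5 in primary males was -2.23 (SE 0.035, adjusted p = 1.44e-22), against 0.35 in primary females (adjusted p = 2.13e-08), and the difference of -2.58 between these was called (adjusted p = 2.27e-20). In secondary cells it was lower in October in males (-1.07) and in females (-0.74). Between follicle types the sign turned with sex and again with month: in June secondary cells were at -0.65 in males and 0.49 in females, and in October at 0.52 in males and -0.60 in females, with adjusted p-values of 1.96e-10 or below. The mean over the sexes hid this, at -0.08 in June (adjusted p = 0.00785) and -0.04 in October (adjusted p = 0.224). After rescaling to a common total per library, the June mean was -0.04 and not called (adjusted p = 0.268), and the October mean was -0.08 and called (adjusted p = 0.0227).

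IGFBP7 (gene ID 102184134), a matrix-associated member that binds insulin-like growth factors weakly, had no overlap between neighbours in the order of its 8 groups, unlike the other 9 genes. It averaged 1285 ± 39.3 in secondary October males, 676 ± 15.5 in secondary October females, 530 ± 10.2 in secondary June males and 431 ± 3.07 in secondary June females (SD, n = 3 each). Primary cells averaged 1382 ± 47.7 in October males, 924 ± 67.8 in October females, 1694 ± 24.3 in June males and 1153 ± 36.3 in June females. Males stood above females in both months in secondary and in primary cells, by 0.30 to 0.93. In June secondary cells were lower, at -1.67 in males (SE 0.044, adjusted p = 5.27e-19) and -1.42 in females (adjusted p = 3.13e-17). In October they were at -0.45 in females (adjusted p = 1.88e-08) and -0.10 in males (adjusted p = 0.106). The male value was called with a common total (-0.19, adjusted p = 0.000804) and without primary October female 2 (adjusted p = 0.0327).

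IGF2 and IGFBP7 ordered the groups almost alike. In both, primary June males came first, followed by primary October males and secondary October males, and the last places were secondary October females, secondary June males and secondary June females. Primary October females and primary June females changed places in between. Over the 24 libraries, which form 8 groups of 3, Pearson's r of the log2 values was 0.962 and Spearman's rho 0.959, given as a description.

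**Figure D3:**
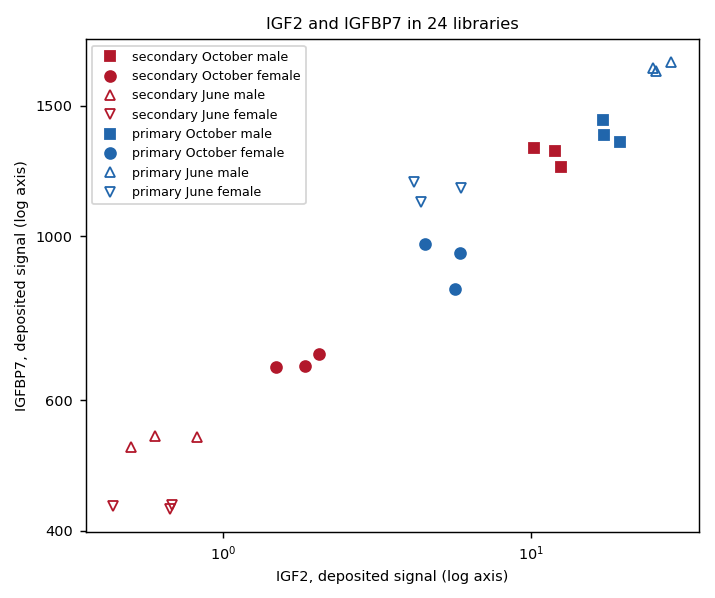
IGFBP7 against IGF2 in the 24 libraries, deposited signal on log axes, 1 point per library, red for secondary and blue for primary cells, filled for October and open for June. Secondary June libraries lie at the lower left (IGF2 up to 0.82, IGFBP7 up to 537) and primary June males at the upper right (IGF2 from 24.8, IGFBP7 from 1672).

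PAPPA (gene ID 102179947), the protease, was lowest in secondary cells in June. Secondary males had 14.2, 13.3 and 13.9 in October and 3.08, 2.81 and 3.18 in June, and secondary females had 23.1, 24.6 and 26.4 in October and 4.00, 4.08 and 4.10 in June. Primary males had 23.7, 22.6 and 24.4 in October and 37.3, 32.5 and 32.9 in June, and primary females had 24.5, 28.8 and 36.0 in October and 18.3, 19.9 and 19.1 in June. The 6 secondary June libraries did not overlap with any of the other 18, which lay at 13.3 or above.

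In June, PAPPA differed between secondary and primary cells by -3.13 in males (SE 0.089, adjusted p = 2.2e-18) and -1.99 in females (SE 0.089, adjusted p = 1.64e-14). In October the differences were -0.73 in males (adjusted p = 2.01e-06) and -0.24 in females (adjusted p = 0.0357). The female value rested on single libraries: without primary October female 3, the highest of its group, it was -0.10 (adjusted p = 0.316), without primary October female 1 it was -0.37, and it lost its call without secondary October female 1 (-0.20, adjusted p = 0.135) or 2 (-0.24, adjusted p = 0.0754). Secondary cells had more PAPPA in October than in June, by 1.88 in males (adjusted p = 2.96e-14) and 2.34 in females (adjusted p = 1.05e-15). In primary cells the month effect was -0.52 in males and 0.60 in females, and these differed by -1.12 (adjusted p = 1.97e-07).

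Over the axis as a whole, June separated the follicle types in 1 direction apart from IGFBP5 in females. Averaged over the sexes, 10 of 10 genes were called lower in secondary than in primary cells, where 61.9% of all tested genes were called and 30.3% were called lower. The median of their absolute differences was 0.66, against 0.18 over all tested genes. The 10 were lower in males too (background 59.6% called, 28.9% lower), and in females 9 were lower and IGFBP5 was higher at 0.49 (background 49.3% called). The mean of IGFBP5 over the sexes lost its call with a common total for each library (-0.04, adjusted p = 0.268). On the mean of the sexes, 4 of the 10 differed by at least 1 on the log2 scale (IGF2, PAPPA, IGFBP7 and IGFBP3), against 4.29% of all tested genes. By the same rule there were 0 in October (0.743% of all genes), 3 between the months in secondary cells (3.72%), 0 in primary cells (2.63%) and 4 in the interaction of type and month (3.66%). Between follicle types within 1 sex, females had 3 in October (IGFBP2, IGFBP3 and IGF2, 3.08% of all genes) and 3 in June (4.27%). Males had 0 in October (0.659%) and 4 in June (7.35%). When the mean of each of the 8 groups stood for 1 sample, PAPPA was the 1 gene of the 10 still called (adjusted p = 0.0246). In all, 310 genes were called. The spread in that fit is the difference between males and females of the same follicle type and month, not that between replicates.

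In October the axis differed less between follicle types, as did all tested genes. The median absolute difference of the 10 was 0.216 averaged over the sexes (0.0911 over all tested genes). In females it was 0.482 (0.14), against 0.638 (0.188) in June, and in males 0.247 (0.102), against 0.816 (0.238). Averaged over the sexes 5 genes were lower in secondary cells, 2 were higher and 3 were not called, against a background of 31.5% called. The calls for IGF2R (-0.14, adjusted p = 0.0187) and IGFBP4 (0.16, adjusted p = 0.0351) were weak: IGF2R lost its call without primary October female 3 (-0.09, adjusted p = 0.0564), and IGFBP4 lost its call without any 1 of 6 libraries (secondary October female 2 or 3, secondary October male 1 or 3, primary October female 2, primary October male 2), with values of 0.11 to 0.15. Within the sexes, 6 were lower and 3 higher in females (35.5% called) and 5 lower and 1 higher in males (18.5% called). The 2 genes higher on the mean, IGFBP3 and IGFBP4, were at 1.33 and 0.52 in females. In males they were at -0.32 and -0.20 (the latter not called). IGFBP5 and IGF1R were also called in opposite directions in the sexes. With 1 mean per group standing for a sample, limma called 0 of the 10 and 0 of all genes, with 0 of the 10 and 294 of all genes at an unadjusted p under 0.05.

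Between the months, averaged over the sexes, IGF2, IGF1R, IGFBP3, IGFBP4 and IGFBP7 were called in opposite directions in the 2 cell types. Of these, IGFBP7 alone was so called within both sexes. IGF1R (-0.07) and IGFBP3 (0.125) were not called in secondary males, nor were IGF2 (0.13) and IGFBP4 (-0.15) in primary females. On the mean of the sexes, 8 genes were higher in October in secondary cells, IGFBP5 was lower and IGF2R was not called (background 62.9% called, 29.0% higher). Among the 8, IGFBP2 was at 0.885 in males and -0.39 in females, both called, and IGF1 at 2.35 and -0.22 (the latter not called). In primary cells the means of IGF1 and IGFBP2 were higher. IGF1 was at 1.91 in males and -0.80 in females, and IGFBP2 at -0.08 (not called) and 1.02. Another 7 were lower in primary cells, with IGFBP5 at -2.23 in males and 0.35 in females, and PAPPA was not called (background 60.9% called, 32.3% lower). Of all genes called there, 46.9% were higher, and 57.3% with a common total for each library. The IGF2 call among the 7 was weak (-0.20, adjusted p = 0.0378) and was lost without any 1 of 5 libraries (primary June female 1, primary June male 2, primary October female 1, primary October male 1 or 3), with values of -0.14 to -0.19. Without primary October female 3, PAPPA stood at -0.03 in place of 0.04, uncalled in either case. The interaction of follicle type and month was the October difference minus the June difference, averaged over the sexes. It was called for 9 of the 10 (background 46.2% called), 8 of them positive.

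The interaction was 2.07 for PAPPA (adjusted p = 1.14e-14), 2.07 for IGF2 (adjusted p = 1.09e-12), 1.58 for IGFBP3 and 1.27 for IGFBP7. IGFBP2 was the negative 1, at -0.22 (adjusted p = 0.0253), and lost its call without any 1 of 5 libraries, with values of -0.18 to -0.20. These were secondary June male 3, secondary October female 1, secondary October male 2, primary June female 2 and primary October female 1. The mean joined opposite changes in the sexes. Between June and October the type difference of IGFBP2 went from -0.895 to 0.0691 (not called) in males. In females it went from -0.28 to -1.69. IGFBP5 was not called (0.04, adjusted p = 0.388), and its mean also joined opposite changes. Between June and October its type difference went from -0.65 to 0.52 in males and from 0.49 to -0.60 in females. The interaction within each sex was not tested. The comparisons between types and between months share libraries, so they are not independent of each other. With 1 mean per group standing for a sample, limma called 0 of the 10 in either month comparison or in the interaction. At an unadjusted p under 0.05 there were 2 of the 10 in secondary cells (19.3% of all genes), 2 in primary cells (17.4%) and 4 in the interaction (7.79%). By month within the sexes, secondary males had 6 higher and 1 lower (56.5% called), secondary females 6 higher and 3 lower (51.3%), primary males 1 higher and 8 lower (55.5%), and primary females 3 higher and 5 lower (48.2%). The call of IGF2R in secondary females (-0.17, adjusted p = 0.0307) was lost without any 1 of secondary June female 1 or 3 and secondary October female 1 or 2 (-0.13 to -0.17), and that of IGFBP4 in primary males (-0.24, adjusted p = 0.0137) without primary June male 2 (-0.18) or primary October male 2 (-0.20).

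**Figure D4:**
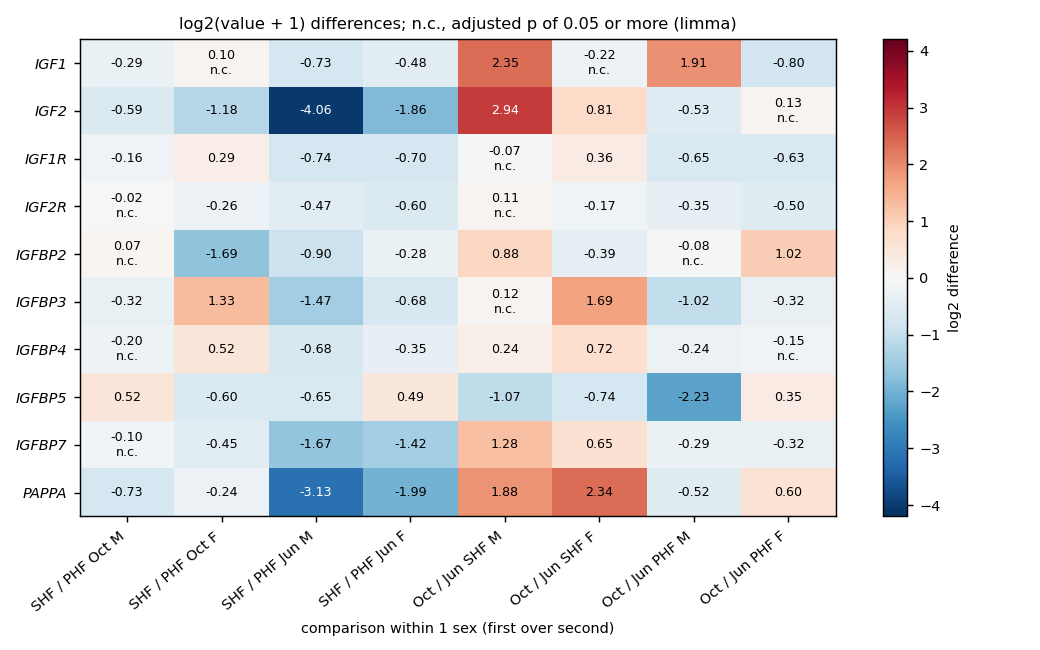
Differences on the log2(value + 1) scale for the 10 genes (rows) in the 8 comparisons within 1 sex (columns, first group over second), with the value in each cell; n.c. marks an adjusted p of 0.05 or more. SHF is secondary, PHF primary, M male, F female. The columns of secondary against primary cells in June are negative apart from IGFBP5 in females (0.49), and IGF1 in October against June is 2.35 and 1.91 in males and -0.22 and -0.80 in females.

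Many values differed between the sexes. Males against females, 3 of the 10 genes had higher and 5 had lower values in secondary June cells (background 39.5% called), and 6 higher and 2 lower in primary June cells (45.4%). In October the counts were 5 and 4 in secondary cells (40.4%) and again 5 and 4 in primary cells (33.6%). The effect of follicle type differed between the sexes for 7 genes in June (41.2%) and 10 in October (26.7%), and that of month for 10 genes in secondary cells (37.7%) and 6 in primary cells (36.8%). In secondary October males against females, IGF1, IGF2, IGFBP2, IGFBP7 and IGF2R were higher, and IGFBP3 was the farthest apart, at -2.36 (SE 0.064, adjusted p = 2.57e-18). The call of IGF2R in primary June cells (-0.16, adjusted p = 0.0431) was lost without any 1 of 6 libraries (secondary June female 1, primary June female 2 or 3, primary June male 1 or 3, primary October male 3), that of IGF1R in secondary October cells (-0.13, adjusted p = 0.0196) without secondary October female 2 or male 1, and that of PAPPA in primary October cells (-0.31, adjusted p = 0.00911) without primary October female 3 (-0.17, adjusted p = 0.0851). The sex labels were not checked here against genes of the sex chromosomes: of 8 Y-linked genes looked up, 0 were listed.

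Proliferation markers, contractile markers and SOX2 moved with some of these groups. MKI67, a marker of dividing cells, was at 16.9 to 18.6 in the 6 secondary June libraries and at 3.19 to 9.32 in the other 18, while these 6 held the lowest IGF2, IGFBP7 and PAPPA. The 8 pericyte and smooth muscle markers summed to 8598 to 8912 in primary June males and to 4824 to 7389 elsewhere, and primary June males had the highest mean of IGF2, IGF1R, IGFBP4, IGFBP5, IGFBP7 and PAPPA. SOX2 was at 13.7 to 15.1 in secondary October males, inside the range of primary cells (10.6 to 17.9). In the other secondary libraries it was at 0.70 or below. Secondary October males enter the October type differences in males, the month effects in secondary males and the sex terms built on these. The part of these markers, cells or states in the results was not tested.

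In the lists that follow, the median over all tested genes was -0.01 to 0.00 on the log2 scale in the comparisons averaged over the sexes. Of 11 further genes for ligands, carriers and their release, 7 were tested. In June 6 were lower and 1 higher in secondary cells (median -0.52; 61.9% of all tested genes called, 30.3% lower). The 1 higher gene was STC2, a stanniocalcin that blocks PAPPA, at 1.91 (SE 0.046, adjusted p = 1.59e-19). Its means were 40.6 in secondary June males and 20.5 in secondary June females against 6.71 and 7.23 in primary cells. STC1, which also inhibits PAPPA, went the other way at -1.48 (adjusted p = 5.8e-14), with means of 0.10 in secondary males and 0.18 in secondary females against 0.95 and 4.23 in primary cells. In secondary cells STC2 was lower in October than in June, at -1.88 (adjusted p = 2.01e-19), and in primary cells at -1.41 (adjusted p = 4.36e-17). STC2 remained higher in secondary cells in October, at 1.44 (adjusted p = 1.68e-16).

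IGFBP6, a carrier that prefers IGF2, had group means of 770 to 1985 and was lower in secondary cells in June (-0.72, adjusted p = 2.17e-13) and October (-0.48, adjusted p = 1.06e-09). The insulin receptor INSR, which can pair with IGF1R, was lower in secondary cells in June (-0.52, adjusted p = 4.12e-09) and at -0.02 in October (adjusted p = 0.764). CRIM1, a membrane protein with a motif like that of the binding proteins, was lower in both months (-0.91 and -0.56). INS was listed at 0 in all libraries, and the means of IGFBP1 and PAPPA2 did not exceed 0.17 in any group.

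Of 20 genes for adaptors, PI3-kinase and AKT, 19 were tested. In June 4 were higher and 11 lower in secondary cells (median -0.14; 61.9% of all tested genes called, 30.3% lower), led by GRB14, an adaptor that restrains the insulin receptor, at -1.18 (adjusted p = 3.5e-13), PIK3R3, a regulatory subunit of PI3-kinase, at 0.74, and the docking protein IRS2 at -0.59. In October 6 were higher and 2 lower (median 0.00; 31.5% called), with IRS2 again lower at -0.52 (adjusted p = 2.44e-08). In October against June, secondary cells had 5 higher and 9 lower (62.9% of all tested genes called), and primary cells 2 higher and 13 lower (60.9% called, 32.3% lower). In primary cells SHC1, an adaptor of receptor tyrosine kinases, was at -0.70. Of 12 mTORC1 and FOXO genes, June had 2 higher and 6 lower in secondary cells, near the 61.9% called over all tested genes, and October 1 and 1, against 31.5% called. The kinase MTOR was higher in secondary cells in June (0.49, adjusted p = 1.67e-10) and lower in secondary cells in October than in June (-0.61, adjusted p = 2.95e-12).

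Of 10 genes known as FOXO targets, 8 were tested, and in June 8 were lower in secondary cells (median -0.53; 61.9% of all tested genes called, 30.3% lower). Among them the thioredoxin inhibitor TXNIP was at -0.57 (adjusted p = 2.76e-12) and PDK4, which holds back glucose oxidation, at -1.45 (adjusted p = 1.12e-11). In October 2 were higher and 2 lower (median -0.03; 31.5% called). Of 5 genes of growth hormone signalling with a value, 1 was higher and 2 lower in June, near the 61.9% called over all tested genes, and 2 and 2 in October (31.5% called). The kinase JAK2, which acts below GHR, was higher in secondary cells in both months (0.71 and 0.58). The receptor GHR was not called between types in June (-0.13, adjusted p = 0.239) and was lower in October than in June in primary cells (-0.78, adjusted p = 2.32e-07), with means of 1.35 to 3.81. The feedback inhibitor SOCS2 was lower in secondary cells in June (-0.60) and October (-0.29).

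Of 8 genes for IGF2 mRNA-binding proteins and regulators of IGF2, 5 were tested. IGF2BP2 and PLAG1 are given here and the other tested genes are not. The 8 together summed to 89.0 to 103 in secondary and 88.7 to 96.8 in primary June males. In June females they summed to 74.1 to 96.3 in secondary and 108 to 119 in primary cells. IGF2BP2, which binds the IGF2 messenger RNA, was lower in secondary cells in June at -2.26 (SE 0.039, adjusted p = 4.76e-22), with means of 7.07 in males and 11.7 in females against 43.5 and 51.4 in primary cells. In October it was at -0.82 (adjusted p = 1.22e-13), with means of 38.5 in secondary males and 12.1 in secondary females against 42.1 and 36.3 in primary cells. PLAG1, a transcription factor that activates IGF2, was at -0.63 in June (adjusted p = 1.7e-08) and -0.20 in October (adjusted p = 0.0218). Of 13 other genes known as imprinted in mouse or human, 12 were tested, and in June 2 were higher and 10 lower in secondary cells (median -0.43; 61.9% of all tested genes called, 30.3% lower). PEG10, a gene derived from a retrotransposon, was at -1.93 (adjusted p = 2.07e-21), and DCN, a proteoglycan of the dermis, was the other way at 0.88. In October 4 were higher and 5 lower (31.5% called).

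Genes with the most similar pattern to a member were taken by Pearson's r of log2(value + 1) over the 24 libraries, among 9359 genes with a mean of at least 5. The 24 libraries share 8 groups, so these are descriptions. THSD4 came first for both IGF2 (r = 0.958) and IGFBP7 (r = 0.959), AFDN for PAPPA (r = 0.957) and TTYH2 for IGF1 (r = 0.919). TMEM63A came first for IGF2R (r = 0.941), EPB41L3 for IGF1R (r = 0.924), TNFRSF21 for IGFBP3 (r = 0.927), TBC1D10A for IGFBP4 (r = 0.911) and PDLIM7 for IGFBP2 (r = 0.891). Among the 10 genes themselves, r ran from -0.735 for IGF1 with IGFBP5 to 0.962 for IGF2 with IGFBP7. IGFBP2 and IGFBP5 are neighbours in the goat annotation (assembly ARS1.2), and their r was 0.026.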

How the data were processed

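RNA was sequenced from papilla cells in 24 libraries, 3 for each of 8 groups. RNAiso Plus was used for extraction and NEBNext Ultra for paired-end library preparation, per the labels' protocols. The submitters' processing notes name kallisto 0.46.1 and sleuth 0.30.0 without their roles, and neither build nor transcript set is given. What the authors deposited is a normalised signal per gene, not counts, with library totals of 959766 to 1045876. Depth is unknown, so no counting interval is given.

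The 13049 genes that reached 1 in no fewer than 3 libraries were analysed as log2(value + 1). The linear model had 1 mean per group, with a variance trend and robust moderation (limma 3.58.1 with statmod 1.5.0 in R 4.3.3). P-values were adjusted by Benjamini-Hochberg across these genes in each comparison and called under 0.05. There were 21 comparisons. The fit was tested on simulated data. The members, gene lists and tests were chosen with earlier results of these data known. Named genes were the 10 members, up to 3 called genes per list by p, and the 3 genes most like each member; others were chosen after their values were seen. Of the 20326 gene IDs, 20294 matched the reference table, and the 10 members had the same symbol there. Alternatives were other filters, pseudocounts, scalings and samples, and a replicate block. Replicate numbers are shared in the labels, and 25 of 84 same-numbered pairs had deviations correlated over 0.1. These correlations cannot decide whether the numbers pair samples, and the main fit used no pairing. No sequence was used here. Some results on other genes are not reported here.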

Additional observations from a re-analysis of the deposited data

Results flagged for a closer look

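These results stand here because the effect of follicle type or month differed between the sexes, by the interaction term in limma (male effect minus female effect, log2 scale). For secondary against primary cells in June it was -2.20 for IGF2, -1.14 for IGFBP5, -1.14 for PAPPA, -0.79 for IGFBP3, -0.62 for IGFBP2, -0.33 for IGFBP4 and -0.26 for IGFBP7. In October it was 1.76 for IGFBP2, 1.11 for IGFBP5, 0.59 for IGF2, 0.34 for IGFBP7 and 0.24 for IGF2R, and -1.66 for IGFBP3, -0.72 for IGFBP4, -0.49 for PAPPA, -0.44 for IGF1R and -0.39 for IGF1. For October against June in secondary cells it was 2.57 for IGF1, 2.13 for IGF2, 1.27 for IGFBP2, 0.63 for IGFBP7 and 0.27 for IGF2R, and -1.57 for IGFBP3, -0.48 for IGFBP4, -0.46 for PAPPA, -0.43 for IGF1R and -0.33 for IGFBP5. In primary cells it was 2.71 for IGF1, -2.58 for IGFBP5, -1.12 for PAPPA, -1.10 for IGFBP2, -0.70 for IGFBP3 and -0.66 for IGF2.

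Adjusted p-values of these 33 terms were 0.047 or below. The October term of IGF1 (adjusted p = 0.0345) lost its call without any 1 of secondary October female 1 or 2, secondary October male 1, primary October female 3 and primary October male 1 or 2. That of IGF2R (adjusted p = 0.047) lost it without any 1 of 18 of the 24 libraries, and was 0.148 without primary October female 3. The June term of IGFBP4 (adjusted p = 0.0192) lost it without primary June female 2 or male 2. With a pseudocount of 0.1 the October term of IGF2 was 0.90. With a common total for each library the June term of IGFBP7 was -0.16 and still called (adjusted p = 0.0202), while the June term of IGFBP4 (-0.24), the October term of IGF2R (0.16) and the secondary cell term of IGF2R (0.16) were not. Males and females are separate sets of 3 libraries each, so sex and any other difference between these sets cannot be told apart.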

How the results depend on the processing

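Of the 210 pairs of gene and comparison, 179 were called. Leaving out 1 library, in 24 settings, 15 of these lost their call and 0 changed sign. Under the other settings 17 lost it and 0 changed sign, not counting the fit on the 8 group means, which is given below. Counting only differences of at least 1 on the log2 scale, with the share of all tested genes in brackets, members called for secondary against primary cells were 4 in June [4.29%], 4 in males [7.35%] and 3 in females [4.27%], and 0 in October [0.743%], 0 in males [0.659%] and 3 in females [3.08%]. For October against June they were 3 in secondary cells [3.72%], 5 in males [6.31%] and 2 in females [3.94%], and 0 in primary cells [2.63%], 3 in males [5.13%] and 1 in females [2.93%]; the interaction had 4 [3.66%]. The sex terms had 3 in June [5.69%], 3 in October [3.28%], 4 in secondary cells [5.33%] and 4 in primary cells [5.17%]. Males against females had 1 in secondary June [1.93%], 2 in primary June [4.06%], 2 in secondary October [3.06%] and 3 in primary October [2.56%]. With the 8 group means as single samples, members called at any size of difference were 1, 0, 0, 0 and 0, against 10, 7, 9, 9 and 9 in the main fit. The order is secondary against primary in June and October, October against June in secondary and primary cells, and the interaction.

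Values that were not called changed sign with a common total for each library, and the cause was not tested: IGFBP2 was -0.0172 for secondary against primary October males and 0.00956 for October against June in primary males. IGFBP5 was -0.048 in the interaction. IGF1R was 0.0578 and 0.0455 in the sex terms of June and of primary cells, and IGF2R was 0.0222 and 0.0287 for males against females in secondary June and primary October. With single libraries left out, ranges crossing 0 were -0.0399 to 0.0995 for IGF2 (males against females, secondary June), -0.043 to 0.017 for IGFBP3 (primary June), -0.0535 to 0.0916 for IGF2R (primary October), -0.0719 to 0.0206 for IGF1R and -0.0339 to 0.0682 for IGFBP7 (sex terms of primary cells), and -0.0311 to 0.103 for PAPPA (October against June, primary).

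Whether replicate numbers pair samples cannot be decided from the correlations of deviations. Same-numbered deviations correlated at -0.281 to 0.348, with a median of 0.0335 against -0.0167 for different numbers. On average 11 of 24 libraries were closest to their own number. The replicate block added 2 calls, for IGF1 (-0.22, adjusted p = 0.0395, October against June in secondary females) and IGFBP2 (0.19, adjusted p = 0.0376, males against females in primary June), and removed 0. The fit on only the compared groups was not run for the interaction, which uses all 8. Read depth is unknown, so the precision of low values such as IGF2 in secondary June cells cannot be given.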
